A study of Homo sapiens with 8 samples.

Results

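The genes described here are 51 genes of DNA replication licensing and of the replication fork, measured by RNA-seq in the colon cancer cell lines HCT-8 and HCT-8/FU. They were taken as a list of gene symbols and matched to the Ensembl identifiers of the count tables, which hold 64253 identifiers. The list was chosen with earlier results of these data known, so its shares of called genes are not independent of that choice. HCT-8, an established human colon cancer line, responds to 5-fluorouracil (5-FU), while HCT-8/FU was derived as a resistant form of it, so that the resistant state is represented by a single line. The other groups were HCT-8 cells grown in conditioned medium (CM), which is medium taken from HCT-8 cells (CM of HCT-8) or from HCT-8/FU cells (CM of HCT-8/FU) after 48 h of culture. The medium of HCT-8 and HCT-8/FU was unconditioned, and the labels give no 5-FU exposure for any of the 4 groups during the experiment. Each group had 2 replicates, and nothing in the sources used here says that these came from separate cultures, so p-values measure only the spread between these libraries. All groups carry the background of the same parental line and serum-containing medium.

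Before S phase, the origin recognition complex (ORC) with CDC6 and CDT1 loads the MCM2-7 helicase onto DNA as double hexamers, a step called licensing, and geminin (GMNN) holds CDT1 back once S phase has begun. The kinase CDC7 with its partner DBF4 (DDK) and the cyclin E-dependent kinase then activate the helicase with CDC45 and GINS, and polymerases alpha, delta and epsilon copy DNA with the sliding clamp PCNA, its loader RFC, the single-strand binding protein RPA, the flap nuclease FEN1 and the ligase LIG1. Many of these genes are transcribed under E2F control at the G1/S transition, and 5-FU acts on dividing cells through thymidylate synthase inhibition and through misincorporation into RNA and DNA. FAM111A and FAM111B are related proteases, of which FAM111A binds PCNA and acts on protein obstacles at forks.

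E2F-type letters were searched in the 250 bases before each start site, in RefSeq promoter windows of GRCh38.p14, because E2F sites are a known shared feature of these genes. The letters were TTTCCCGC, TTTGGCGC, TTTCGCGC, TTTGGCGG and TTTCCCGG, each on both strands, and matches to TTTGGCGC and to TTTCGCGC on the other strand can overlap. A window was found for 42 of the 51 genes, and 21 of those 42 (50%) held at least 1 match in any of their windows, against 4.96% of the 27305 genes with a window. Counted by window, 22 of 53 (41.5%) held a match, against 4.06% of all 35116 windows. The most frequent letters were TTTCCCGC, in 18.9% of the members' windows and 1.39% of all windows. These are matches of letters, not measured binding. These promoters are shown because they stand for the helicase, the clamp, the primase-polymerase and the loading factor whose levels differed in the ways described next, with matched letters in capitals and each sequence printed 5′ to 3′ on the strand of its gene. They lie at chr2:135876444-135876693 on the minus strand for MCM6, chr20:5126623-5126872 on the minus strand for PCNA, chrX:24693668-24693917 on the plus strand for POLA1 and chr17:40287629-40287878 on the plus strand for CDC6.
MCM6: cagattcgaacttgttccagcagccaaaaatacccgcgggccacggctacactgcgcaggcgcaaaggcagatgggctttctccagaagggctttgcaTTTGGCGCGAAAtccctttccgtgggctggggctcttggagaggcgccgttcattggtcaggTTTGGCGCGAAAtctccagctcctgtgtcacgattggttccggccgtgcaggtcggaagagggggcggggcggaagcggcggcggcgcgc
PCNA: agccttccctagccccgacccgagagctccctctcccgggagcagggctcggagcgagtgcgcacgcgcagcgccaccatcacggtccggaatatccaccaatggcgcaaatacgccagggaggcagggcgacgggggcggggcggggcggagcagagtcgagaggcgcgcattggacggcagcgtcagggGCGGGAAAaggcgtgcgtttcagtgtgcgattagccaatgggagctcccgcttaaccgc
POLA1: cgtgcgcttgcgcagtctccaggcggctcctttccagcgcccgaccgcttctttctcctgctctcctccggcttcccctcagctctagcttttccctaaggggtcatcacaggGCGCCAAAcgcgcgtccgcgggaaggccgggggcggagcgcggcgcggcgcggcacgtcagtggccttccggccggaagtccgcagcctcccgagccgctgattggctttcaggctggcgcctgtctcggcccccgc
CDC6: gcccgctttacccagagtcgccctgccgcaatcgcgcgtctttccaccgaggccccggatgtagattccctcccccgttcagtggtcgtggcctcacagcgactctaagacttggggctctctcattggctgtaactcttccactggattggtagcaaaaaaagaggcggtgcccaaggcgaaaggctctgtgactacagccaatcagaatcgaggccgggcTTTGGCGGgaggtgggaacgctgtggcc
MCM6 held 2 copies of a run in which TTTGGCGC and TTTCGCGC overlap on opposite strands, which start 152 and 90 bases before the start site. PCNA held TTTCCCGC and POLA1 held TTTGGCGC, both on the strand opposite to the gene, so that the printed sequence shows their reverse complements, and CDC6 held TTTGGCGG on the strand of the gene, 28 bases before its start site.

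The libraries held 5804124 to 34881349 counts on genes. In 3 of the 8 libraries, 1 each of HCT-8 (replicate 1), HCT-8/FU (replicate 2) and CM of HCT-8 (replicate 1), 20.0% to 29.6% of records were not aligned, against 3.58% to 4.43% in the others, and these 3 were also the shallowest. The epithelial markers stayed at a summed 9305 to 11601 CPM (the usual depth-scaled read count, on TMM library sizes) with none at 0, whereas the 10 markers of other cell types summed to 14.7 to 25.3 CPM, and 4 or 5 of them were at 0 in each library. Most of that sum came from the fibroblast markers COL1A1 (8.19 to 13.8 CPM) and PDGFRB (4.35 to 9.04 CPM). The fibroblast markers COL1A2 and DCN had 0 and at most 0.113 CPM. All 51 genes passed the filter on low counts, as did 20305 genes in all. Levels are per cell population: a larger share of cells in S phase and more RNA per cell cannot be told apart in bulk samples.

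Over all of these genes, replication transcripts took 0.174% and 0.175% of the gene counts in the HCT-8 libraries. The share was 0.268% and 0.296% in HCT-8/FU, 0.235% and 0.253% under CM of HCT-8, and 0.241% and 0.240% under CM of HCT-8/FU. The Wilson 95% intervals of these shares, which cover counting error only, were at most 0.00442 percentage points to either side. HCT-8 was therefore the group with the lowest share, and its libraries did not overlap with those of any other group. HCT-8 had the lowest mean level for 37 of the 51 genes. HCT-8/FU had the highest mean for 32 genes, CM of HCT-8 for 18, HCT-8 for 1 (CDC6) and CM of HCT-8/FU for 0. These orders were counted for the 51 genes only, so no share over all tested genes stands beside them.

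**Figure D1:**
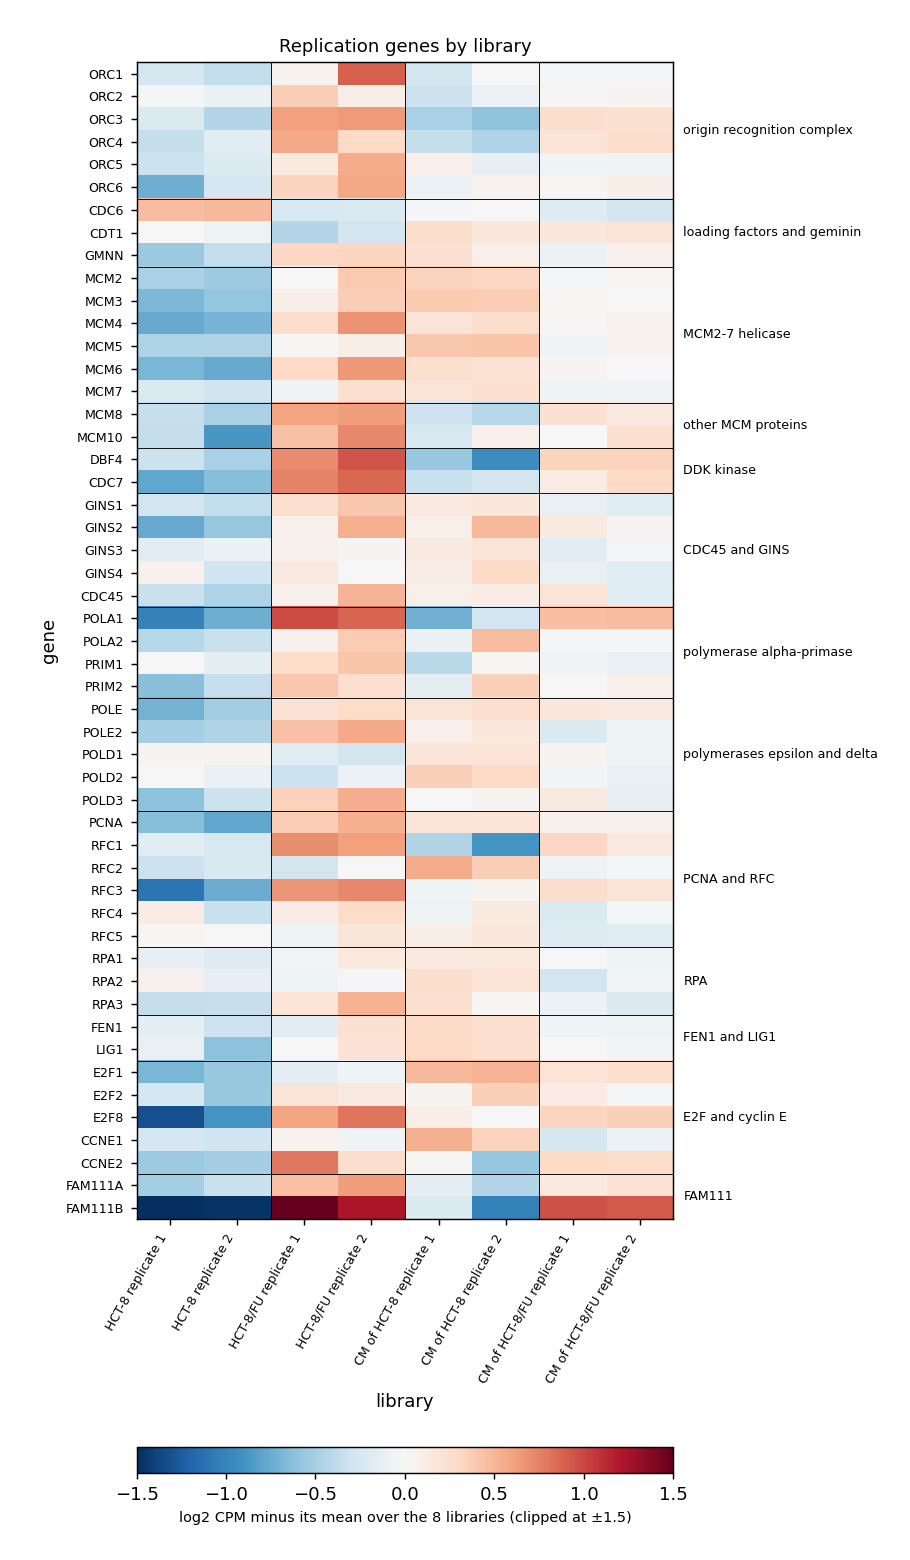
Level of each of the 51 replication genes (rows, grouped by role) in each of the 8 libraries (columns), as log2 CPM minus the gene's mean over the 8 libraries, clipped at ±1.5. Most rows are blue in HCT-8 and red in HCT-8/FU, CDC6 is red in HCT-8 and blue in HCT-8/FU, and FAM111B has the strongest contrast.

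Genes were called with edgeR's quasi-likelihood test on the counts, fitted to all 20305 tested genes, where the Benjamini-Hochberg adjusted p did not exceed 0.05 and the log2 fold change reached 0.58 in size (a fold of 1.49). Errors of log2 fold changes are standard errors (SE) with n = 2 per group. Comparing HCT-8/FU with HCT-8, which asks what distinguishes the resistant line, 30 of the 51 genes (58.8%) were called higher and 1 lower. Among all tested genes, 13.2% were called higher and 8.12% lower. The median log2 fold change of the 51 genes was 0.70, against 0.0082 for all genes, and 46 of the 51 values were positive. Between the media, that is in cells given medium of HCT-8/FU relative to cells given medium of HCT-8, 7 genes (13.7%) were called higher and 1 lower, against 7.97% and 1.28% of all genes, which puts the share near the background. The median there was -0.18 for the 51 genes and -0.059 for all genes. In CM of HCT-8 against HCT-8, which asks what conditioned medium itself does to the sensitive line, 20 genes (39.2%) were called higher and 0 lower, against 3.86% and 4.29% of all genes, with a median of 0.47 for the 51 genes and 0.014 for all genes. For the 0 lower calls, edgeR's quasi-likelihood test gave 3 lower genes at an unadjusted p of at most 0.05 (CDC6, RFC1 and DBF4), of which CDC6 and RFC1 also passed the adjusted threshold without the fold threshold, and DESeq2 called 0. RFC1 was called lower without CM of HCT-8 replicate 1. The 20 higher calls became 16 with DESeq2 and with DESeq2's size factors, and 17 with only the groups compared. Without HCT-8 replicate 2 the median of the 51 genes was 0.36. The comparisons of HCT-8/FU and of CM of HCT-8 with HCT-8 share the HCT-8 libraries, and both comparisons that use CM of HCT-8 share its libraries, so their values are set side by side only.

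**Figure D2:**
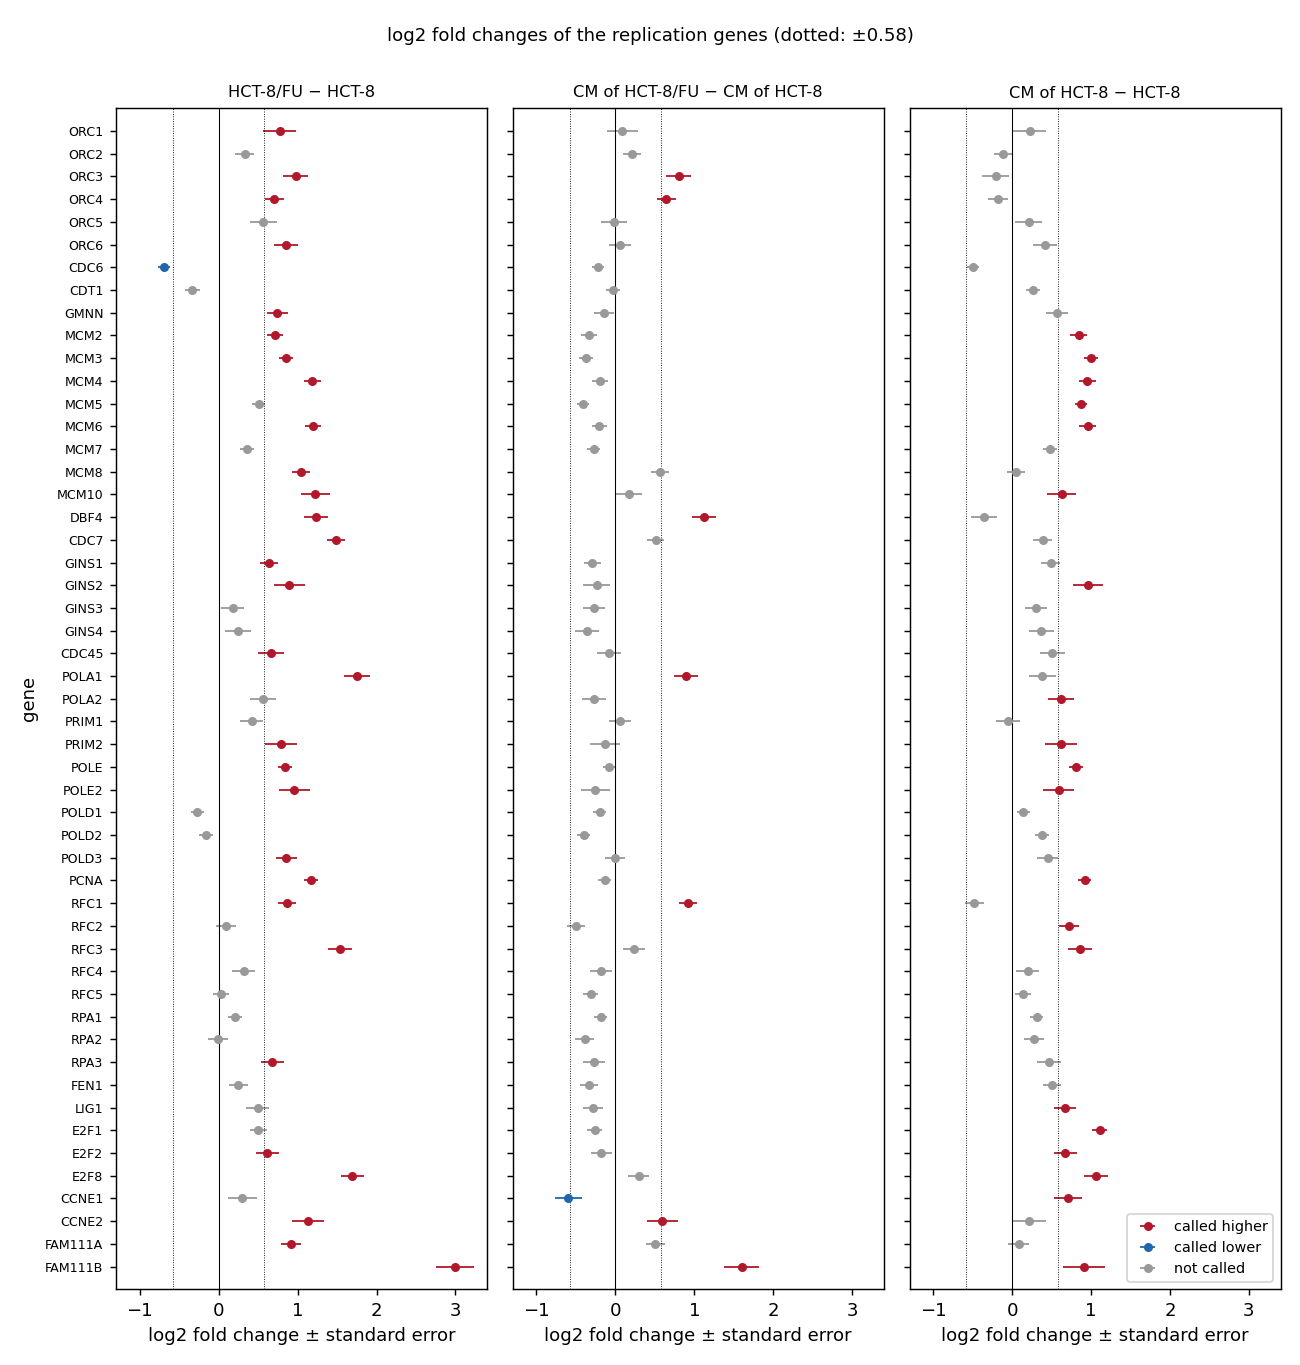
Log2 fold change (x axis, with bars of 1 standard error) of each of the 51 genes (y axis) in 3 comparisons, with genes called higher in red, called lower in blue and not called in grey. There are 30 red points in HCT-8/FU against HCT-8, 7 between the conditioned media and 20 in CM of HCT-8 against HCT-8.

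Across the 3 comparisons, 13 genes were called higher than in HCT-8 both in HCT-8/FU and under CM of HCT-8, and were not called between the media. These were MCM2, MCM3, MCM4, MCM6, MCM10, GINS2, PCNA, RFC3, PRIM2, POLE, POLE2, E2F2 and E2F8. Another 10 (MCM8, GMNN, ORC1, ORC6, GINS1, CDC45, POLD3, CDC7, RPA3 and FAM111A) were called higher in HCT-8/FU and in neither other comparison, which is not a test that the comparisons differ. A set of 6 (ORC3, ORC4, RFC1, POLA1, DBF4 and CCNE2) was called higher in HCT-8/FU and in its medium but not in CM of HCT-8, and FAM111B was called higher in all 3 comparisons. MCM5, RFC2, POLA2, LIG1 and E2F1, 5 genes, were called in CM of HCT-8 against HCT-8 alone, where they were higher. The remaining calls were those of CDC6, lower in HCT-8/FU, and CCNE1, lower between the media and higher in CM of HCT-8. MCM7, CDT1, ORC2, ORC5, GINS3, GINS4, RFC4, RFC5, PRIM1, POLD1, POLD2, FEN1, RPA1 and RPA2, 14 genes, were called in none. Combinations of calls were counted for the listed replication genes only, so no share over all tested genes stands beside them. The comparisons also share libraries, and whether any combination is particular to the listed genes was not tested. Of the genes with a promoter window, 15 of the 24 called higher in HCT-8/FU held E2F-type letters, as did 5 of the 17 not called there. CDC6, the 1 called lower, held them too. In CM of HCT-8 the counts for genes called higher and not called were 11 of 16 and 10 of 26. Between the media they were 3 of 5 and 18 of 36. A link between letters and calls was not tested.

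The MCM2-7 helicase subunits were all lowest in HCT-8, and their HCT-8 libraries overlapped with no other group. With 2 libraries a group such separation is common: of all tested genes, 32.7% lay apart and above HCT-8 in HCT-8/FU, and 27.2% did so under CM of HCT-8, against 41 and 39 of the 51 genes. MCM2, a subunit that also binds histones, measured 84.5 and 81.1 CPM in HCT-8 against 118 and 156 in HCT-8/FU, while cells under CM of HCT-8 had 149 and 147 and those under CM of HCT-8/FU 116 and 119. MCM3 measured 103 and 109 CPM in HCT-8, compared with 174 and 211 in HCT-8/FU, 214 and 212 under CM of HCT-8 and 166 and 164 under CM of HCT-8/FU. MCM4 measured 84.7 and 88.3 CPM in HCT-8 against 172 and 228 in HCT-8/FU, while cells under CM of HCT-8 had 164 and 172 and those under CM of HCT-8/FU 145 and 148. In these subunits the HCT-8/FU replicates were further apart than those of the other groups, with the higher value in replicate 2, a library with 20.0% of records not aligned. MCM5 measured 63.5 and 63.9 CPM in HCT-8, compared with 88.7 and 93.1 in HCT-8/FU, 116 and 117 under CM of HCT-8 and 84.4 and 90.8 under CM of HCT-8/FU. MCM6 measured 50.6 and 48.1 CPM in HCT-8 against 99.96 and 128 in HCT-8/FU, while cells under CM of HCT-8 had 96.2 and 94.6 and those under CM of HCT-8/FU 84.1 and 81.6. MCM7 measured 172 and 162 CPM in HCT-8, compared with 193 and 237 in HCT-8/FU, 229 and 237 under CM of HCT-8 and 191 and 194 under CM of HCT-8/FU. In all 6 subunits the lowest CM of HCT-8 library lay above the highest CM of HCT-8/FU library, as was so for 25 of the 51 genes and 34.5% of all genes.

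The tests of the helicase followed these levels. In HCT-8/FU against HCT-8, 4 of the 6 subunits were called higher, led by MCM6 at 1.19 ± 0.11 and MCM4 at 1.19 ± 0.11 on the log2 scale (edgeR's quasi-likelihood test, Benjamini-Hochberg adjusted p = 5.72e-07 and 6.87e-07), while MCM5 at 0.51 and MCM7 at 0.36 stayed under the fold threshold. MCM2, at 0.71 ± 0.11, fell to 0.52 without HCT-8/FU replicate 2 and then missed that threshold. In CM of HCT-8 against HCT-8, 5 of 6 were called higher, with MCM3 at 1.00 ± 0.09 (edgeR's quasi-likelihood test, Benjamini-Hochberg adjusted p = 3.8e-06), MCM6 at 0.96, MCM4 at 0.95, MCM5 at 0.87 and MCM2 at 0.84, and MCM7 had 0.48. Between the media none of the 6 was called, and all 6 values were negative, from -0.41 for MCM5 to -0.20 for MCM6 and MCM4. The related proteins MCM8 and MCM10, of which MCM10 is a fork-initiation factor and MCM8 acts in repair, were higher in HCT-8/FU by 1.04 ± 0.11 and 1.23 ± 0.18. MCM8 ranged from 17.9 to 20.1 CPM in HCT-8 and CM of HCT-8, from 37.7 to 38.8 in HCT-8/FU and from 27.5 to 29.4 in CM of HCT-8/FU, where its log2 fold change against CM of HCT-8 was 0.57, just under the threshold. The call of MCM10 in CM of HCT-8, at 0.63, was lost when replicate 2 of HCT-8 (0.24) or of CM of HCT-8 (0.44) was left out. It was also lost with DESeq2, with DESeq2's size factors and with only the groups compared.

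**Figure D3:**
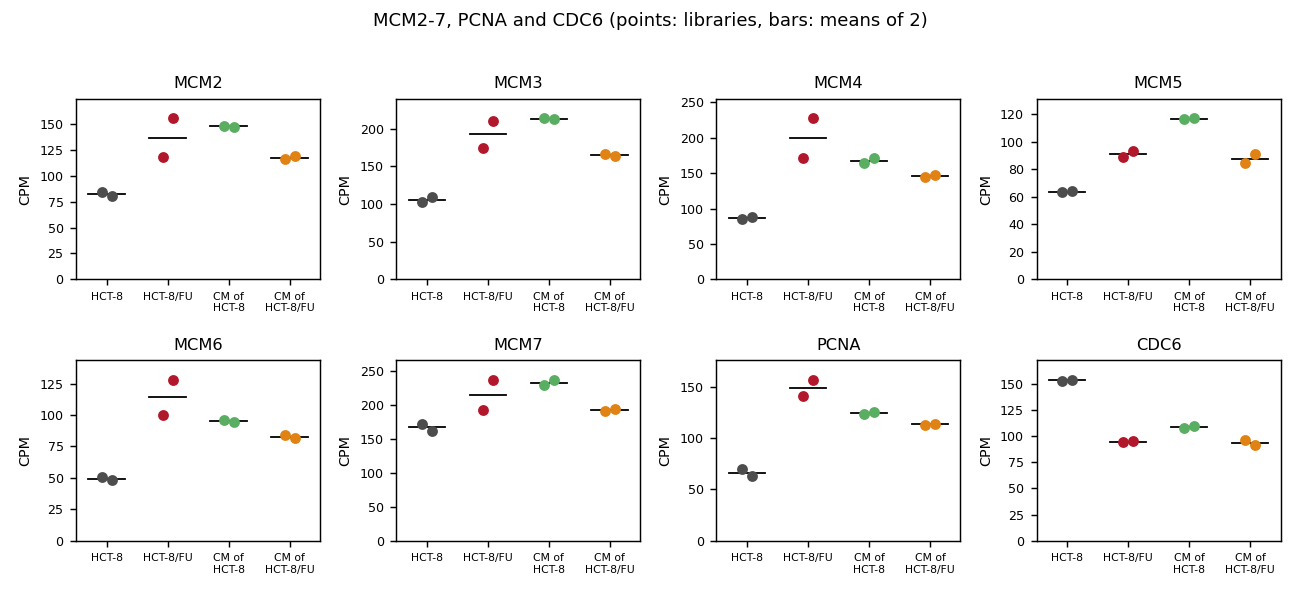
CPM (y axes, each from 0) of MCM2 to MCM7, PCNA and CDC6 in the 4 groups (x axes), with a point for each library and a bar at the mean of 2. HCT-8 is lowest for the 6 helicase subunits and PCNA, and highest for CDC6.

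CDC6, the ATPase that brings MCM2-7 to ORC, was highest in HCT-8, where the MCM2-7 genes were lowest. It measured 153 and 154 CPM in HCT-8 against 94.4 and 95.1 in HCT-8/FU, while cells under CM of HCT-8 had 108 and 110.2 and those under CM of HCT-8/FU 96.2 and 91.2. Its HCT-8 libraries lay above all 6 others. The fall in HCT-8/FU was -0.70 ± 0.07 on the log2 scale (edgeR's quasi-likelihood test, Benjamini-Hochberg adjusted p = 3.53e-06), it was -0.89 once GC content and length had been corrected for, and its call was kept in each of the 18 alternatives of that comparison. In CM of HCT-8 the value was -0.49 ± 0.07, under the fold threshold. CDT1, the partner of CDC6 in loading, measured 68.5 and 64.7 CPM in HCT-8, compared with 50.2 and 56.3 in HCT-8/FU, 82.4 and 77.0 under CM of HCT-8 and 77.1 and 78.2 under CM of HCT-8/FU. CDT1 was lowest in HCT-8/FU without overlap, at -0.33 ± 0.09, and was called in no comparison. Geminin (GMNN), the inhibitor of CDT1, measured 12.2 and 14.1 CPM in HCT-8 against 22.4 and 22.6 in HCT-8/FU, while cells under CM of HCT-8 had 21.1 and 19.0 and those under CM of HCT-8/FU 17.0 and 18.8. GMNN was called higher in HCT-8/FU at 0.74 ± 0.14 (edgeR's quasi-likelihood test, Benjamini-Hochberg adjusted p = 0.000492), and this call was lost after the GC and length correction, at 0.36.

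Of the 6 ORC genes, which mark origins, 4 were called higher in HCT-8/FU and 2 between the media, and none was called in CM of HCT-8 against HCT-8. ORC1, the subunit that cycles with the cell cycle, measured 15.8 and 14.7 CPM in HCT-8, compared with 19.7 and 35.4 in HCT-8/FU, 15.7 and 19.1 under CM of HCT-8 and 18.8 and 18.8 under CM of HCT-8/FU. The HCT-8/FU replicates of ORC1 were far apart, and its value of 0.77 ± 0.21 in HCT-8/FU became 0.38 when HCT-8/FU replicate 2 was left out and 0.68 when HCT-8 replicate 2 was, with no call in either case. ORC3 measured 9.61 and 8.22 CPM in HCT-8 against 17.0 and 17.4 in HCT-8/FU, while cells under CM of HCT-8 had 7.94 and 7.31 and those under CM of HCT-8/FU 13.3 and 13.0. The 2 groups with the resistant cells or their medium thus lay above both others. ORC3 was higher by 0.98 ± 0.16 in HCT-8/FU and by 0.80 ± 0.16 between the media (edgeR's quasi-likelihood test, Benjamini-Hochberg adjusted p = 0.00019 and 0.00196), and ORC4 by 0.70 ± 0.12 and 0.64 ± 0.12. With the GC and length correction neither gene was called, ORC3 at 0.50 and 0.39, and ORC4 at 0.04 and -0.0042. The value of ORC4 in HCT-8/FU was also 0.52 without HCT-8/FU replicate 1. ORC6 was higher by 0.86 ± 0.15 in HCT-8/FU, and ORC2 (0.33) and ORC5 (0.56) were under the threshold.

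Both subunits of DDK, which phosphorylates the loaded helicase, were higher in HCT-8/FU. CDC7 measured 17.1 and 18.9 CPM in HCT-8, compared with 49.3 and 53.3 in HCT-8/FU, 23.2 and 24.2 under CM of HCT-8 and 31.9 and 36.1 under CM of HCT-8/FU. DBF4 measured 12.6 and 11.3 CPM in HCT-8 against 25.9 and 30.6 in HCT-8/FU, while cells under CM of HCT-8 had 10.7 and 8.25 and those under CM of HCT-8/FU 20.0 and 20.0. No pair of groups overlapped for either gene. CDC7 was higher in HCT-8/FU by 1.48 ± 0.11 and DBF4 by 1.24 ± 0.15 (edgeR's quasi-likelihood test, Benjamini-Hochberg adjusted p = 1.64e-07 and 1.39e-05). Between the media DBF4 was higher by 1.13 ± 0.15 (edgeR's quasi-likelihood test, Benjamini-Hochberg adjusted p = 8.6e-05) and remained called in all 18 alternatives, whereas CDC7 had 0.51 ± 0.11. DBF4 has 3 pseudogenes named as its copies, among which reads could be split.

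CDC45 and the GINS subunits, which complete the active helicase, ranged from 0.18 (GINS3) to 0.90 (GINS2) in HCT-8/FU against HCT-8, with 3 of 5 called. CDC45 measured 16.1 and 14.7 CPM in HCT-8, compared with 21.2 and 28.7 in HCT-8/FU, 21.4 and 21.9 under CM of HCT-8 and 23.1 and 18.0 under CM of HCT-8/FU. Its 0.66 ± 0.17 in HCT-8/FU was not called without HCT-8/FU replicate 2 (0.47) or HCT-8 replicate 2 (0.56), and GINS1, at 0.64 ± 0.12, was likewise not called without either (0.57 and 0.56) or with the GC and length correction (0.33). GINS2 measured 8.03 and 9.14 CPM in HCT-8 against 14.2 and 19.7 in HCT-8/FU, while cells under CM of HCT-8 had 14.3 and 19.0 and those under CM of HCT-8/FU 14.9 and 13.9. GINS2 rose by 0.90 ± 0.19 in HCT-8/FU and 0.96 ± 0.19 under CM of HCT-8 (edgeR's quasi-likelihood test, Benjamini-Hochberg adjusted p = 0.00179 and 0.00234). GINS3 and GINS4 were called nowhere, and 10.9% and 23.4% of their exonic bases lie opposite exons of other genes, which counting without strand could mix.

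POLA1, the catalytic subunit of the polymerase that starts each new strand, had the second largest difference among these genes in HCT-8/FU. It measured 7.11 and 8.66 CPM in HCT-8, compared with 28.3 and 26.2 in HCT-8/FU, 8.75 and 11.8 under CM of HCT-8 and 19.6 and 19.8 under CM of HCT-8/FU. HCT-8 and CM of HCT-8 lay below the other groups by a wide margin, and its log2 fold changes were 1.75 ± 0.16 in HCT-8/FU and 0.89 ± 0.15 between the media (edgeR's quasi-likelihood test, Benjamini-Hochberg adjusted p = 8.28e-07 and 0.000664). With the GC and length correction they were 1.20, still called, and 0.32, not called. The other primase-polymerase subunits were closer to each other: POLA2 had 0.56 and PRIM1 0.42 in HCT-8/FU, neither called, and PRIM2 had 0.79 ± 0.20, which was not called after the correction (0.26) or without HCT-8/FU replicate 1 (0.68). In CM of HCT-8, POLA2 and PRIM2 were called at 0.62 and 0.61. These calls were lost without CM of HCT-8 replicate 2, where POLA2 had 0.26 and PRIM2 0.29, and in other fits that left out a library. With all libraries kept, both were lost with DESeq2 and with its size factors. PRIM2 was also lost with another TMM reference and with only the groups compared. POLA2 was kept in 13 of 18 alternatives and PRIM2 in 7.

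Among the replicative polymerases, POLE and POLE2 of the leading-strand enzyme were called higher both in HCT-8/FU (0.84 ± 0.09 and 0.96 ± 0.20) and in CM of HCT-8 (0.81 ± 0.09 and 0.59 ± 0.20). POLE measured 42.7 and 48.7 CPM in HCT-8 and 76.1 to 84.4 CPM over the 6 other libraries, without overlap. The POLE2 value in CM of HCT-8 was at the edge of the thresholds, was kept in 4 of 18 alternatives, and lay between 0.54 and 0.62 when single libraries were left out. Of the polymerase delta genes, POLD3 was called in HCT-8/FU at 0.86 ± 0.13, while the catalytic POLD1 (-0.27) and POLD2 (-0.16) were not called.

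PCNA, the clamp that tethers polymerases, had the highest mean level per kilobase of exon of the 51 genes in every group, from 47.3 CPM per kilobase in HCT-8 to 106 in HCT-8/FU, and measured 69.6 and 63.1 CPM in HCT-8 against 141 and 157 in HCT-8/FU, while cells under CM of HCT-8 had 124 and 125 and those under CM of HCT-8/FU 113 and 113. The 4 groups did not overlap with each other. PCNA was higher by 1.17 ± 0.08 in HCT-8/FU and by 0.92 ± 0.08 in CM of HCT-8 (edgeR's quasi-likelihood test, Benjamini-Hochberg adjusted p = 9.57e-08 and 5.31e-06), was called in all 18 alternatives of both comparisons, and had -0.14 ± 0.08 between the media. It has 3 pseudogenes named as copies. Its rank per kilobase in HCT-8 depends on the length used. MCM7 has 4960 exonic bases but 3028 in its longest protein-coding transcript, against 1403 and 1359 for PCNA.

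The clamp loader subunits did not move together. RFC3, a small subunit, measured 6.98 and 8.90 CPM in HCT-8, compared with 23.7 and 24.6 in HCT-8/FU, 14.3 and 15.4 under CM of HCT-8 and 17.9 and 17.1 under CM of HCT-8/FU. RFC1, the large subunit, measured 68.9 and 65.9 CPM in HCT-8 against 125 and 119 in HCT-8/FU, while cells under CM of HCT-8 had 56.9 and 41.7 and those under CM of HCT-8/FU 96.5 and 85.7. RFC2 measured 20.5 and 21.8 CPM in HCT-8, compared with 21.2 and 25.6 in HCT-8/FU, 37.8 and 33.0 under CM of HCT-8 and 24.3 and 25.1 under CM of HCT-8/FU. CM of HCT-8 was thus the lowest group for RFC1 and the highest for RFC2. RFC3 was higher in HCT-8/FU by 1.54 ± 0.15 and in CM of HCT-8 by 0.85 ± 0.15 (edgeR's quasi-likelihood test, Benjamini-Hochberg adjusted p = 1.36e-06 and 0.00113). RFC1 was higher by 0.86 ± 0.12 in HCT-8/FU and 0.92 ± 0.12 between the media (edgeR's quasi-likelihood test, Benjamini-Hochberg adjusted p = 3.25e-05 and 4.91e-05). With the GC and length correction RFC1 had 0.51 and 0.60, so that only the second was called, and it kept that second call in all 18 alternatives. RFC4 and RFC5 had 0.32 and 0.03 in HCT-8/FU and were not called.

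The remaining fork proteins differed less. RPA1 and RPA2, the large and middle single-strand binding subunits, had 0.21 and -0.01 in HCT-8/FU, and RPA3 had 0.68 ± 0.15, lost as a call after the GC and length correction (0.35) and without HCT-8/FU replicate 2 (0.55). FEN1 and LIG1, which finish Okazaki fragments, had 0.25 and 0.49 in HCT-8/FU and 0.50 and 0.67 in CM of HCT-8, where LIG1 was called, but not without HCT-8 replicate 2 (0.32). Between the media these 5 values lay between -0.39 (RPA2) and -0.19 (RPA1), with no call.

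Among the E2F genes, E2F1 and E2F2 encode activators and E2F8 encodes an atypical repressor. E2F1 measured 21.6 and 23.4 CPM in HCT-8 against 31.7 and 33.1 in HCT-8/FU, while cells under CM of HCT-8 had 48.6 and 49.2 and those under CM of HCT-8/FU 40.2 and 41.4. E2F8 measured 7.37 and 10.0 CPM in HCT-8, compared with 27.9 and 32.3 in HCT-8/FU, 19.8 and 18.6 under CM of HCT-8 and 23.0 and 23.7 under CM of HCT-8/FU. The groups of each gene were apart, but their order differed: E2F1 was highest in CM of HCT-8 and E2F8 in HCT-8/FU. E2F1 had the largest difference of the 51 genes in CM of HCT-8 against HCT-8, 1.11 ± 0.10, with 0.50 ± 0.10 in HCT-8/FU, and E2F8 had 1.06 ± 0.15 and 1.69 ± 0.15 (edgeR's quasi-likelihood test, Benjamini-Hochberg adjusted p = 4.61e-06 for E2F1 in CM of HCT-8 and 5.49e-07 for E2F8 in HCT-8/FU). E2F2 measured 17.9 and 14.5 CPM in HCT-8 against 24.4 and 23.6 in HCT-8/FU, while cells under CM of HCT-8 had 22.1 and 27.4 and those under CM of HCT-8/FU 23.3 and 21.1. E2F2 was called at 0.61 ± 0.15 in HCT-8/FU and 0.67 ± 0.14 under CM of HCT-8, and without HCT-8 replicate 2 it had 0.40 and 0.42 and no call. It was also not called without HCT-8/FU replicate 1 (0.57) in the former, nor without CM of HCT-8 replicate 2 (0.49) in the latter. Under CM of HCT-8 the call of E2F2 was also lost with the GC and length correction.

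The cyclin E genes, whose products activate CDK2 at the start of S phase, went apart between the media. CCNE1 measured 7.24 and 7.04 CPM in HCT-8, compared with 8.97 and 8.36 in HCT-8/FU, 12.5 and 11.0 under CM of HCT-8 and 7.25 and 8.11 under CM of HCT-8/FU. CCNE2 measured 9.08 and 9.28 CPM in HCT-8 against 23.0 and 15.9 in HCT-8/FU, while cells under CM of HCT-8 had 13.5 and 8.89 and those under CM of HCT-8/FU 16.3 and 16.1. CCNE1 was highest in CM of HCT-8, whereas for CCNE2 that group overlapped with HCT-8. Between the media CCNE1 had -0.60 ± 0.17 and CCNE2 0.60 ± 0.20 (edgeR's quasi-likelihood test, Benjamini-Hochberg adjusted p = 0.0219 and 0.0445), both at the edge of the thresholds and called in 5 and 10 of 18 alternatives. Without a single library CCNE1 ranged from -0.68 to -0.51 where its call was lost, and CCNE2 had 0.27 without CM of HCT-8 replicate 2. In HCT-8/FU against HCT-8, CCNE2 was higher by 1.13 ± 0.20 and CCNE1 had 0.30, and in CM of HCT-8 CCNE1 was called at 0.71 ± 0.18, but not without HCT-8 replicate 2 (0.61). Of the exonic bases of CCNE2, 37.1% lie opposite exons of other genes, so that its counts are uncertain if strand was not used.

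FAM111B had the largest difference of all 51 genes in HCT-8/FU and between the media. It measured 2.24 and 3.07 CPM in HCT-8, compared with 24.6 and 19.9 in HCT-8/FU, 7.37 and 4.22 under CM of HCT-8 and 16.5 and 16.1 under CM of HCT-8/FU. The 4 groups did not overlap, and CM of HCT-8/FU lay nearer to HCT-8/FU than to HCT-8. FAM111B was higher by 2.99 ± 0.24 in HCT-8/FU, a 7.95-fold difference, and by 1.60 ± 0.22 between the media, a 3.03-fold difference (edgeR's quasi-likelihood test, Benjamini-Hochberg adjusted p = 2.42e-07 and 9.67e-05). Both calls were kept in all 18 alternatives, with 2.40 and 1.07 after the GC and length correction. In CM of HCT-8 it had 0.91 ± 0.27, which was called but was not without either HCT-8 library (0.79 and 1.18) or without CM of HCT-8 replicate 1 (0.56). FAM111A measured 17.6 and 20.0 CPM in HCT-8 against 34.3 and 38.9 in HCT-8/FU, while cells under CM of HCT-8 had 22.7 and 18.5 and those under CM of HCT-8/FU 28.0 and 29.4. Its groups had the same order as those of FAM111B, though HCT-8 and CM of HCT-8 overlapped, with 0.92 ± 0.13 in HCT-8/FU (edgeR's quasi-likelihood test, Benjamini-Hochberg adjusted p = 4.26e-05) and 0.51 ± 0.12 between the media, under the fold threshold.

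**Figure D4:**
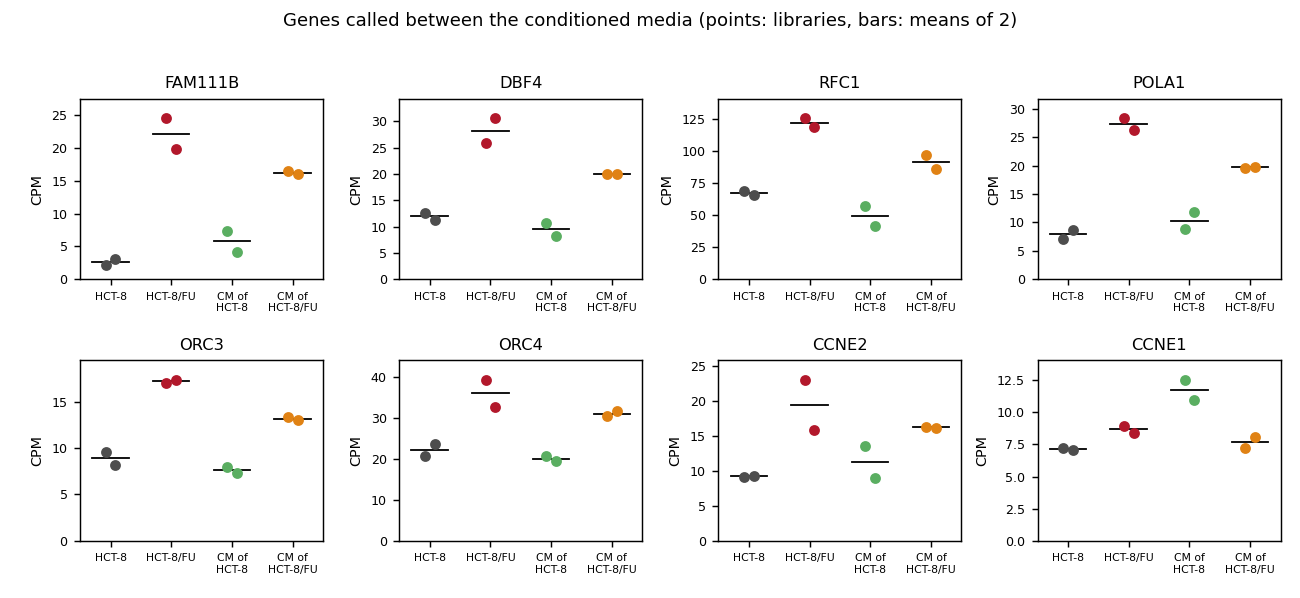
CPM (y axes, each from 0) of the 8 genes called between the conditioned media, in the 4 groups (x axes), with a point for each library and a bar at the mean of 2. For FAM111B, DBF4, RFC1, POLA1, ORC3 and ORC4 the resistant line and its medium lie above both other groups, while CCNE1 is highest in CM of HCT-8.

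Whether the resistant line and its medium shifted these genes differently was tested as the difference between the comparison of the lines and that of the media, at an adjusted p of at most 0.05. It was higher for 31 of the 51 genes and lower for 1, CDC6, against 5.15% and 6.42% of all genes. The largest were E2F8 at 1.40 ± 0.20, MCM6 at 1.40 ± 0.15, FAM111B at 1.39 ± 0.33, MCM4 at 1.38 ± 0.15, and RFC3 and PCNA at 1.31. CDC6 had -0.48 ± 0.10. Of the 7 genes called higher in both comparisons, ORC3 had a difference of 0.17, ORC4 of 0.06, RFC1 of -0.05, DBF4 of 0.11 and CCNE2 of 0.54 ± 0.28, none of them called, while POLA1, at 0.86 ± 0.22, and FAM111B were called. The call of POLA1 was lost in 6 of the fits without a single library. The 32 calls became 16 when HCT-8 replicate 2 was left out, and 18 and 19 when CM of HCT-8/FU lost its replicate 1 or 2. Since this difference rests on all 4 groups, a higher level in CM of HCT-8 raises it as much as a higher level in HCT-8/FU does.

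GC content of the transcripts went along with these changes. Across the 51 genes, which share their libraries, Spearman's rho between GC content and log2 fold change was -0.55 in HCT-8/FU, -0.63 between the media and 0.34 in CM of HCT-8. Over 19857 genes the same values were -0.40, -0.40 and 0.30. With that correction, HCT-8/FU had 25 genes called higher and 1 lower, the media 3 and 1, and CM of HCT-8 22 higher. Over all genes the same correction left 7.27% called higher and 8.06% lower in HCT-8/FU, 2.65% and 2.16% between the media, and 2.76% and 2.72% in CM of HCT-8. Of the main calls, 23 of 31, 3 of 8 and 19 of 20 were kept. Those lost in HCT-8/FU were GMNN, ORC3, ORC4, GINS1, RFC1, PRIM2, POLE2 and RPA3, and those lost between the media were ORC3, ORC4, POLA1, CCNE1 and CCNE2. In CM of HCT-8 the call of E2F2 was lost. The 1 gene lower between the media after the correction was POLE2, at -0.63, which was not called there before it (-0.26). The part of GC content in these results was not tested beyond this correction.

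**Figure D5:**
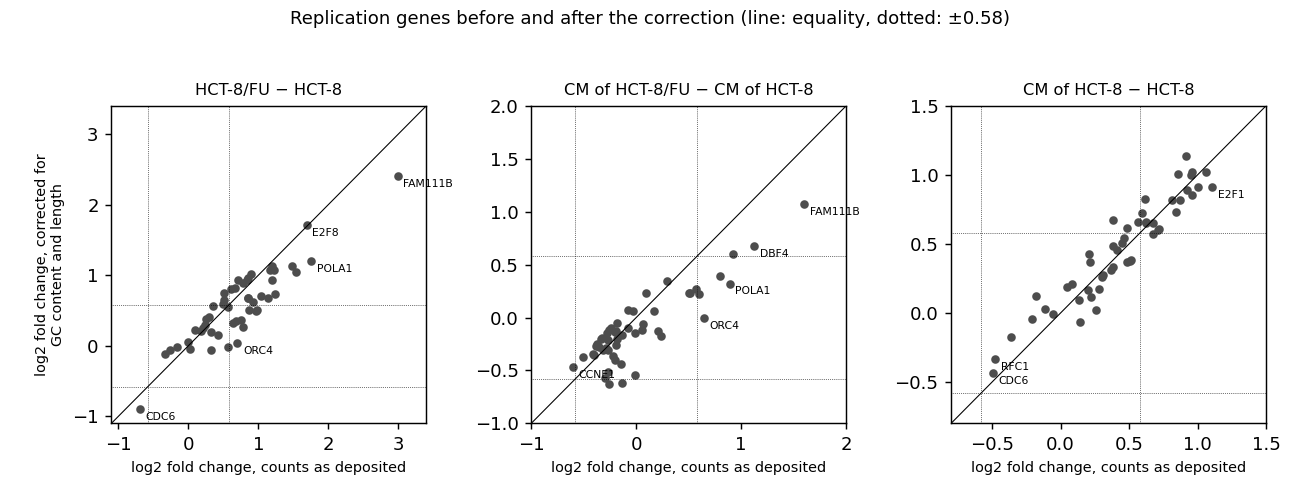
Log2 fold change of the 51 genes from the counts as deposited (x axis) and after the GC and length correction (y axis) in 3 comparisons, with a line of equality and dotted lines at ±0.58. Points lie below the line for genes such as ORC4 and POLA1 in the first 2 panels, while E2F8 stays on it.

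Genes of replication and the cell cycle outside the list were counted beside the 13.2% of all genes called higher in HCT-8/FU, 7.97% between the media and 3.86% in CM of HCT-8, where the medians of all genes were 0.0082, -0.059 and 0.014. A list of 40 other genes held replication genes and also regulators of the cell cycle, such as other E2F genes and CDK2. Of these 40, 15 (37.5%) were called higher in HCT-8/FU and 1 lower, 7 (17.5%) were higher between the media and 5 (12.5%) in CM of HCT-8. Their medians were 0.44, -0.014 and 0.24. Of 25 G2/M genes, 18 (72%) were higher in HCT-8/FU, where their median was 1.39, 11 (44%) between the media with a median of 0.16, and 5 (20%) higher and 1 lower in CM of HCT-8 with a median of 0.31. Of 11 G1 genes, 9 were tested, with 2 higher and 1 lower in HCT-8/FU, 1 higher between the media and 1 higher in CM of HCT-8.

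Levels between genes were compared per kilobase of exon. Within the MCM2-7 hexamer, which holds its subunits in equal numbers, the highest subunit exceeded the lowest 3.88 ± 0.30-fold (SD over 8 libraries), with MCM5 lowest and MCM3 highest by their means over all libraries. In HCT-8 the order differed, with MCM7 at 33.7 CPM per kilobase above MCM3 at 29.1, and with MCM4 and MCM5 at 8.78 and 8.76. Within RFC the ratio was 3.06 ± 1.19, within ORC 2.41 and within GINS 1.69. Per kilobase of the longest protein-coding transcript, MCM6 was lowest and MCM7 highest, so the order depended on the length used as well.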

How the data were processed

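RNA-seq counts of 8 libraries (4 groups, 2 replicates) were analysed. According to the study's methods and the labels, the authors captured mRNA on beads, sequenced pairs of 150-base reads, aligned them with HISAT2 (GRCh38), and counted them per Ensembl gene by HTSeq 0.11.2. The use of strand in counting was not given in the sources used here. Deposited values are raw counts of 64253 genes per library. DESeq2 tables of the authors' own comparisons, which hold fold changes and p-values, were not used. No column of per-sample values was left unused (0). Lines that name no gene stayed out of library sizes and tests. Of all records they included 3.58% to 29.6% not aligned and 33.7% to 49.6% without a feature.

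The members and all gene lists were chosen with earlier results of these data known. Symbols, lengths over exons and their GC contents were read from GENCODE 44 (GRCh38), where 56105 of 64253 identifiers were found. Counts were normalized by TMM (reference library HCT-8 replicate 2), filtered with filterByExpr, and fitted in R 4.3.3 with edgeR 4.0.16 as 4 group means over all 8 libraries, without a replicate block. Quasi-likelihood tests were adjusted by Benjamini-Hochberg over 20305 genes, and the standard error is the absolute log2 fold change over the square root of F. A call needs an adjusted p up to 0.05 and a log2 fold change of 0.58 or more in size. The difference between comparisons needs the adjusted p only. Values per library were named for MCM2 to MCM7, CDC6, CDT1, GMNN, ORC1, CDC45, PCNA, E2F1, E2F2, E2F8, CCNE1, CCNE2, FAM111A, FAM111B and the 5 genes with the largest called change per comparison and direction. Those of POLE, MCM8 and RFC2, outside that rule, were added after their values were seen.

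Alternatives were DESeq2 1.42.0, its size factors, another TMM reference, no filter, only the groups compared, a replicate block, a GC and length correction (splines with 5 degrees of freedom per library, with and without the block), a term marking the libraries where over 15% of records were not aligned, and each library left out. A fit without those 3 libraries was added after seeing the data. The fits were tested on simulated data. Replicates differed by more than sampling noise (median chi-square per gene 1.02 to 2.37, against 0.455 by sampling) and were kept apart. The shallowest library, with 5804124 counts, limits the precision. Protein sequences were not analysed here. Promoter windows came from RefSeq (GRCh38.p14).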

Additional observations from a re-analysis of the deposited data

Results flagged for a closer look

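These genes differed between 2 comparisons: the line comparison (HCT-8/FU against HCT-8) and the medium comparison (HCT-8 cells in medium of HCT-8/FU or of HCT-8). The first sets 2 lines in unconditioned medium against each other, the second 1 line under 2 conditioned media, so cells, medium and reference group all differ. The difference of the log2 fold changes passed edgeR's quasi-likelihood test at a Benjamini-Hochberg adjusted p of at most 0.05 for 32 genes, 31 above 0 and 1 below. Over all genes this difference was called higher for 5.15% and lower for 6.42%. Among the helicase genes it was 1.04 for MCM2, 1.22 for MCM3, 1.38 for MCM4, 0.92 for MCM5, 1.40 for MCM6, 0.63 for MCM7 and 1.06 for MCM10. All 7 had positive values in HCT-8/FU, and the 6 subunits of MCM2-7 had negative values between the media. For licensing and helicase activation it was -0.48 for CDC6, 0.89 for GMNN, 0.80 for ORC6, 0.97 for CDC7, 0.74 for CDC45, 0.93 for GINS1 and 1.13 for GINS2. Of the 32 genes, CDC6 was the 1 for which it was below 0. Of all 51 genes it was above 0 for 47, and CDT1, not called, had -0.30. For the polymerases and primase it was 0.86 for POLA1, 0.83 for POLA2, 0.92 for PRIM2, 0.91 for POLE, 1.22 for POLE2 and 0.87 for POLD3. The clamp, its loader and the remaining fork proteins gave 1.31 for PCNA, 0.60 for RFC2, 1.31 for RFC3, 0.40 for RPA1, 0.95 for RPA3, 0.58 for FEN1 and 0.78 for LIG1. For E2F, cyclin E and FAM111 genes it was 0.77 for E2F1, 0.79 for E2F2, 1.40 for E2F8, 0.90 for CCNE1 and 1.39 for FAM111B. HCT-8 was the lowest group for 37 of the 51 genes and CM of HCT-8 the highest for 18. Levels in all 4 groups enter this difference. Of these 32 calls, 13 were kept in all 17 alternatives: MCM2, MCM3, MCM4, MCM5, MCM6, GINS1, PCNA, RFC3, POLE, POLD3, CDC7, E2F1 and E2F8.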

How the results depend on the processing

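In HCT-8/FU against HCT-8, all alternatives kept CDC6 as the 1 lower gene and gave 25 to 35 higher genes, and 19 of the 31 calls were kept in all 18. Between the media, the GC and length correction left 3 higher genes (4 called, 3 with the replicate block), and the 1 lower gene became 0 with DESeq2's size factors, another TMM reference, no filter, DESeq2, only the groups compared, the term for libraries not aligned, the correction with the replicate block, and without the 3 libraries. In CM of HCT-8 against HCT-8, 1 gene was lower without the 3 libraries, and in the difference between comparisons 2 were lower with that term and without the 3 libraries. ORC4 between the media reversed to -0.0042 with the correction and -0.0027 with the correction and replicate block. Leaving out 1 library gave 7 to 9 called and 0 to 2 lower between the media, 13 to 19 called, 13 to 18 higher and 0 to 1 lower under CM of HCT-8, and 16 to 33 called, 15 to 32 higher and 0 to 1 lower in the difference. The cause of these shifts was not tested. With the replicate block, the line comparison had 31 higher genes and 1 lower, against 7 and 1 between the media, 19 higher under CM of HCT-8, and 29 and 1 in the difference. Same-numbered replicates were not shown to pair: their deviations correlated at -0.086 in the lines, -0.028 in the media and 0.13 between HCT-8 and CM of HCT-8. With 1 library left in a group, its spread was taken to equal that of the others. Depth limits genes at a few CPM, such as FAM111B in HCT-8, more than the helicase genes.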
